A study of Mus musculus with 8 samples.

Results

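The genes described here are 42 fibroblast and interstitial matrix genes out of 35975 mouse genes with a value, taken from a fixed list of fibrillar and associated collagens, small proteoglycans, elastic fibre genes, adhesive glycoproteins, crosslinking enzymes and fibroblast genes. They were read in 8 bulk RNA sequencing libraries from fibrosarcomas, tumors of connective tissue that were implanted under the skin of wild-type C57BL/6 mice from a syngeneic source. The tumors were digested with collagenase B and DNase I, red cells were lysed, and the suspension was passed over magnetic columns. The iron positive group (4 libraries) is what the column retained and eluted, and the iron negative group (4 libraries) is the flowthrough of the same kind of digest. Both groups carry the tags 3L, 3R, 4R and 5L, which the labels do not define, and all mice shared the wild-type genotype. The implanted tumor cells are themselves of connective tissue type, and no label separates them from fibroblasts of the host. The series title calls the fractionated cells macrophages, while the sample labels call them tumor and name no antibody sort, no treatment and no age. Whether the matrix transcripts came from macrophages, from stromal or tumor cells in the preparations or from material carried along with macrophages cannot be told apart here. No source says that the libraries of a group came from separate animals, so p-values measure the spread between these libraries.

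Interstitial matrix is the collagen-based scaffold between cells. Fibroblasts are its main source: they assemble procollagen chains in the endoplasmic reticulum with the chaperone Serpinh1, secrete them, trim their ends, and crosslink the fibrils with lysyl oxidases. Fibril-associated collagens and small leucine-rich proteoglycans coat the fibrils, elastic fibres form on fibrillin microfibrils, and matricellular proteins such as Sparc and the tenascins tune how cells attach. Pericytes, smooth muscle and endothelium also make several of these products.

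Libraries held 19.04 to 24.31 M estimated counts. Summed TPM (transcript abundance corrected for length and library size) of 12 macrophage markers was 25159 to 32031 in iron positive and 31581 to 33121 in iron negative libraries, and 4 of the 12 were called lower in the iron positive group (7 with the tag as a block), with none called higher. Markers of other cells moved with the matrix genes. All 12 endothelial markers, 7 of 10 tested pericyte and smooth muscle markers (9 with the block) and 8 of 8 skeletal muscle markers were called higher in the iron positive group. The summed endothelial TPM was 78.6 to 820.3 in iron positive and 20.1 to 36.5 in iron negative libraries, and the summed pericyte TPM was 47.4 to 317 in iron positive and 18.3 to 39.4 in iron negative libraries. Skeletal muscle markers summed to 25.5 to 80.1 TPM in iron positive and 5.51 to 7.09 TPM in iron negative libraries. Red cell markers summed to 146 to 739 TPM in iron positive and 36.7 to 205 TPM in iron negative libraries, and none of the 5 tested was called without the block, while 4 were called higher with it. Neutrophil markers summed to 43.2 to 119.7 TPM in iron positive and 10.4 to 23.9 TPM in iron negative libraries, with 2 of 4 tested called higher (3 with the block). T cell markers summed to 2.63 to 5.47 TPM in iron positive and 3.43 to 12.7 TPM in iron negative libraries, with 0 of 3 called without the block, while Trac was called lower with it. Of all tested genes 8.49% were called higher and 5.21% lower, and 12.8% and 9.39% with the block. The part of these cells in the matrix results was not tested, and in bulk RNA more cells of a type and more RNA per cell cannot be told apart.

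The comparison asks how matrix transcripts were spread over what the magnet held and what it let through. Most matrix genes were higher in the iron positive group. Of the 42 genes, 38 had enough counts to test, and 23 of these rose and 1 fell in iron positive libraries at an adjusted p under 0.05 (edgeR's quasi-likelihood test, Benjamini-Hochberg). Over all 13343 tested genes, 8.49% were called higher and 5.21% lower. The median log2 fold change of the 38 was 2.73, against -0.01 over all tested genes, and 35 of the 38 were positive. With the tag as a block, 35 of the 38 were called higher and 1 lower, beside 12.8% and 9.39% of all tested genes, and the median was 2.36. DESeq2 called 33 higher and 1 lower, beside 12.8% and 8.02% of all tested genes. Most of the calls were lost in limma: voom called 2 higher and 1 lower, beside 1.42% and 2.05% of all tested genes. On log2(TPM + 0.1) limma called 9 higher and 1 lower, beside 5.29% and 2.02%, and on log2(TPM + 1) 4 higher and 1 lower, beside 3.1% and 1.54%. The 4 iron positive values all lay above the 4 iron negative ones for 24 of the 42 genes and all below them for Col14a1, where 11.2% and 10.3% of all tested genes did so. Within tags, 38 of the 42 were higher in the iron positive library in 4 of 4 pairs, and Col14a1 in 0 of 4. How many of all tested genes were higher in every pair was not counted. In the unblocked fit the calls depend on which libraries are included: without any 1 of the 4 iron negative libraries no gene of the list was called, with smallest adjusted p-values of 0.0619 (3L), 0.0520 (3R), 0.0630 (4R) and 0.0533 (5L), while 35 to 37 of the genes were higher at an unadjusted p under 0.05 and DESeq2 called 30 to 35 higher. Without iron positive 4R, 5 were called higher, against 36 without 3L, 33 without 5L and 17 without 3R. The shares of all tested genes called in these reduced fits are not given here, so a loss particular to the matrix genes is not shown.

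**Figure D1:**
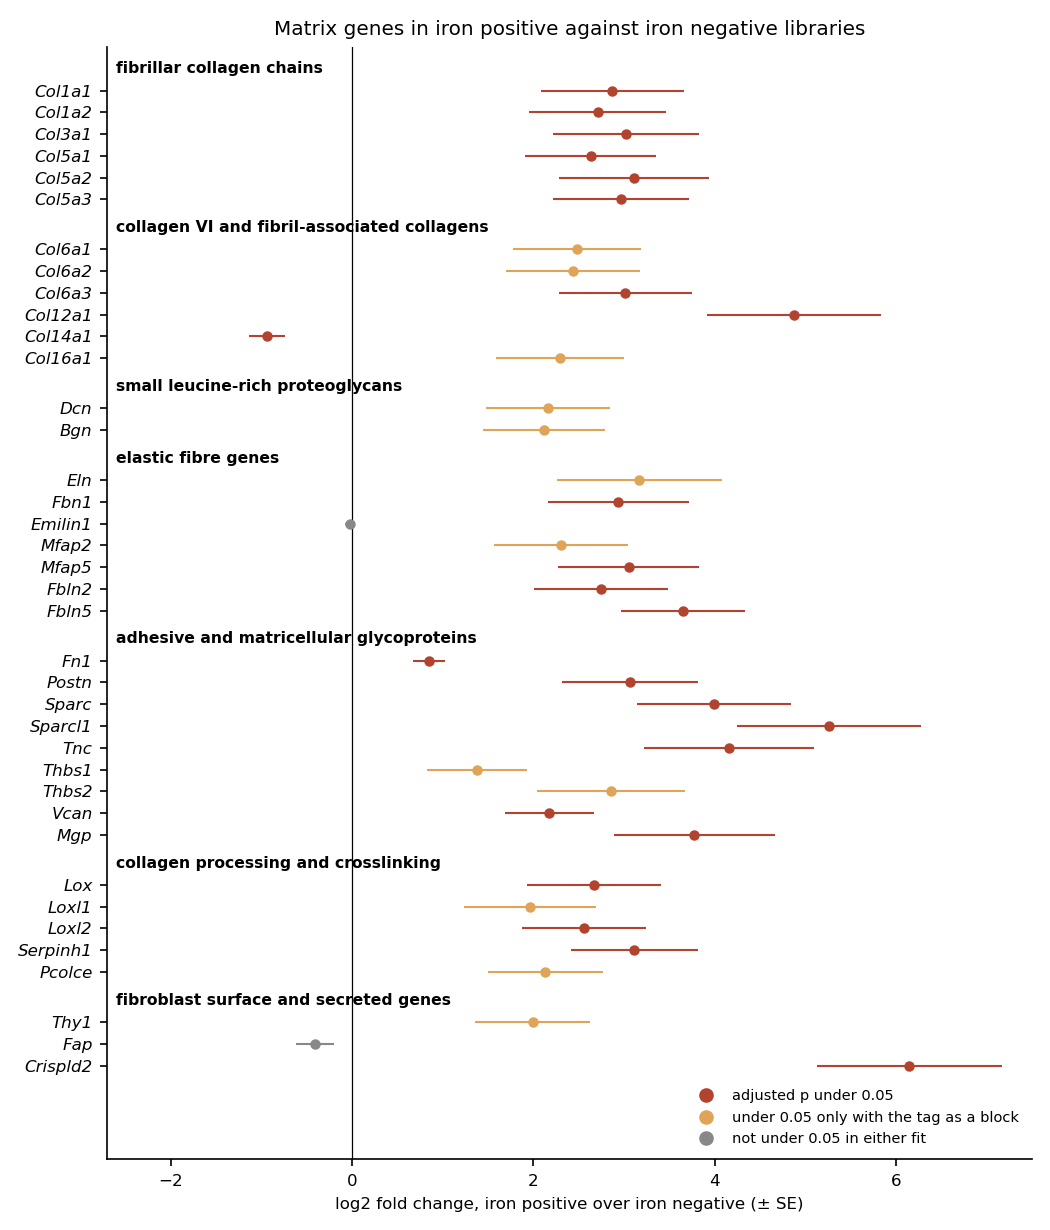
Log2 fold change of iron positive over iron negative libraries, with its SE, for the 38 tested genes by role (n = 4 libraries each). Red points passed an adjusted p of 0.05, orange points passed only with the tag as a block, and the grey points Emilin1 and Fap passed in neither fit. All points but Col14a1, Emilin1 and Fap lie right of 0.

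The fibrillar collagen chains, which build the banded fibrils of connective tissue, rose as a group: 6 of 6 tested chains passed, with a median log2 fold change of 2.92. Of all tested genes 8.49% were called higher. The 6 adjusted p-values were close to the threshold, at 0.0366 to 0.0475 (edgeR). None of the 6 passed in limma voom or on either log2 TPM scale. Col1a1, Col1a2 and Col5a1 did not pass when scaled by library totals, nor, with Col5a3, without iron positive 3R. Col1a1, the alpha 1 chain of collagen I, had 100.1, 957, 345 and 109 CPM (counts relative to library size, scaled between libraries) in iron positive libraries of the tags 3L, 3R, 4R and 5L, against 27.9, 94.3, 54.3 and 30.0 CPM in the iron negative libraries of the same tags. The groups did not overlap, although iron negative 3R lay just under iron positive 3L. Its log2 fold change was 2.87 ± 0.79 (SE, n = 4 each; adjusted p = 0.0461, edgeR). Col3a1, the chain of collagen III, had 114, 1164, 325 and 126 CPM in iron positive libraries and 33.5, 98.2, 48.3 and 33.6 CPM in iron negative ones. This gave 3.02 ± 0.81 (adjusted p = 0.0424, edgeR), again with no overlap.

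Collagen V nucleates collagen I fibrils and limits their width, and its 3 chains rose with those of collagen I. Col5a2 had 18.99, 217, 63.8 and 23.2 CPM in iron positive and 5.79, 17.3, 8.78 and 5.61 CPM in iron negative libraries (3.11 ± 0.83, adjusted p = 0.0424, edgeR). Col5a3 had 12.9, 121, 60.6 and 17.2 CPM in iron positive and 3.76, 11.4, 7.93 and 4.13 CPM in iron negative libraries (2.97 ± 0.75, adjusted p = 0.0366, edgeR). In both genes every iron positive library lay above every iron negative one. Col5a2 (chr1:45374321-45503282, minus strand) lies close to Col3a1 (chr1:45311538-45349706, plus strand) in GRCm38, and their 3′ ends face each other. Col1a2 (2.71 ± 0.75) and Col5a1 (2.63 ± 0.72) also passed. The cartilage chain Col11a1 was too low to test, at 0.249 to 5.39 CPM in iron positive and 0.0870 to 0.448 CPM in iron negative libraries, with overlap.

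The collagens that sit beside or on the fibrils were split. Of 6 tested, 2 rose and 1 fell, and with the tag as a block 5 rose and 1 fell. Col12a1, a fibril-associated collagen with interrupted triple helices, had 4.64, 47.4, 16.2 and 3.70 CPM in iron positive libraries and 0.574, 1.22, 0.403 and 0.261 CPM in iron negative ones. Its lowest iron positive value was above its highest iron negative value, and its log2 fold change was 4.87 ± 0.96 (adjusted p = 0.0198, edgeR). This rests on few iron negative counts, 13, 25, 9 and 6. Col14a1 (chr15:55307750-55520803) of the same family, which binds the surface of fibrils, went the other way. It had 117, 132, 77.0 and 164 CPM in iron positive libraries and 250.1, 226, 229.7 and 233 CPM in iron negative libraries. All 4 iron positive values lay below the iron negative ones, which spanned a narrow range, and the log2 fold change was -0.94 ± 0.19 (adjusted p = 0.0214, edgeR). The adjusted p of Col14a1 was 0.0530 when libraries were scaled to macrophage marker counts, a scaling that moved the median log2 fold change of all genes to 0.18, and its direction stayed. Under that scaling 25 of the 38 tested genes were called higher and 0 lower, beside 9.87% and 0.105% of all tested genes.

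The microfibril-forming collagen VI chains were higher in the iron positive group at similar size. Col6a1 had 30.1, 258, 86.3 and 34.2 CPM in iron positive and 10.3, 28.3, 19.1 and 15.3 CPM in iron negative libraries, without overlap. Its log2 fold change was 2.48 ± 0.71 (adjusted p = 0.0510, edgeR), and with the tag as a block the adjusted p was 0.00685. Col6a3 passed in the unblocked fit (3.02 ± 0.74, adjusted p = 0.0324, edgeR), while Col6a2 (2.44 ± 0.74) and the fibril-associated Col16a1 (2.29 ± 0.71) passed only with the block. Col6a1 (chr10:76708792-76726168) and Col6a2 (chr10:76595762-76623630) lie close together on the minus strand of chromosome 10.

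Small leucine-rich proteoglycans bind collagen fibrils and growth factors. Neither of the 2 tested passed by edgeR, both had an unadjusted p under 0.05, and both passed with the tag as a block and in DESeq2. Bgn, biglycan, had 43.1, 366, 133 and 59.9 CPM in iron positive and 18.7, 55.5, 36.2 and 28.7 CPM in iron negative libraries. The groups overlapped because iron negative 3R lay above iron positive 3L. The log2 fold change was 2.12 ± 0.67 (adjusted p = 0.0716, edgeR, and 0.00699 with the block). Dcn, decorin, had 5.48, 40.1, 11.1 and 5.02 CPM in iron positive and 2.43, 5.22, 3.27 and 2.83 CPM in iron negative libraries (2.17 ± 0.68, adjusted p = 0.0694, edgeR, and 0.0151 with the block). Its groups overlapped because iron negative 3R lay above iron positive 5L, while iron positive 3L lay above every iron negative library. Lum and Fmod, lumican and fibromodulin, were too low for the filter. Fmod had 0.199, 2.37, 1.79 and 0.352 CPM in iron positive and 0.0442, 0.0975, 0.0896 and 0.0435 CPM in iron negative libraries, where a count of 3, the limit a count of 0 allows, is 0.130 to 0.151 CPM. Lum ranged over 0.249 to 1.26 CPM in iron positive and 0.133 to 0.341 CPM in iron negative libraries.

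Of 7 tested elastic fibre genes, 4 rose, and 6 did with the tag as a block. Fbln5, fibulin 5, which organises elastin on microfibrils, had 4.54, 30.5, 14.8 and 5.33 CPM in iron positive and 0.884, 1.85, 0.672 and 1.0 CPM in iron negative libraries. The groups stood well apart, at 3.65 ± 0.68 (adjusted p = 0.0184, edgeR). Fbln2, which binds fibrillin and fibronectin, had 19.6, 170.3, 54.1 and 23.5 CPM in iron positive and 5.04, 17.3, 9.72 and 7.91 CPM in iron negative libraries (2.75 ± 0.74, adjusted p = 0.0428, edgeR). Mfap5, a microfibril glycoprotein, had 0.997, 10.3, 3.05 and 1.36 CPM in iron positive and 0.442, 0.731, 0.403 and 0.304 CPM in iron negative libraries (3.05 ± 0.78, adjusted p = 0.0368, edgeR). Neither gene's groups overlapped. Fbn1, fibrillin 1, also passed (2.94 ± 0.78), while Eln (3.17 ± 0.91) and the microfibril glycoprotein Mfap2 (2.31 ± 0.74) passed only with the block. Eln, elastin itself, had 4.14, 21.4, 8.59 and 3.83 CPM in iron positive and 0.928, 1.22, 2.06 and 0 CPM in iron negative libraries. Fbln1, fibulin 1, did not pass the filter and had 0.199 to 4.64 CPM in iron positive and 0.0884 to 0.179 CPM in iron negative libraries.

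Emilin1 (chr5:30913402-30921277), a glycoprotein at the interface of elastin and microfibrils, stood apart from the other elastic fibre genes. It had 159, 142, 157 and 152 CPM in iron positive libraries and 154, 154, 158 and 157 CPM in iron negative libraries. The 8 values were close to each other and the groups overlapped. The log2 fold change was -0.03 ± 0.05 (adjusted p = 0.766, edgeR), and its sign turned under several scalings, with values up to 0.15.

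Adhesive and matricellular glycoproteins link cells to the scaffold, and 7 of 9 rose. Sparc, Thbs1 and Fn1, the most abundant genes of the list in iron positive libraries, belong here. Sparc (chr11:55394500-55423183), a secreted collagen-binding protein, had 140.01, 1366, 665 and 155 CPM in iron positive and 18.0, 69.0, 38.5 and 21 CPM in iron negative libraries. Every iron positive library was above every iron negative one, and the log2 fold change was 3.99 ± 0.85 (adjusted p = 0.0226, edgeR). Sparcl1, its close relative, known from the vessel wall as well as from stroma, had 25.1, 268, 136 and 34.2 CPM in iron positive and 0.486, 6.97, 3.76 and 1.04 CPM in iron negative libraries. This was a log2 fold change of 5.26 ± 1.02 (adjusted p = 0.0185, edgeR), with no overlap.

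Tnc, tenascin C, which loosens cell adhesion, had 6.18, 50.7, 22.2 and 6.30 CPM in iron positive and 0.619, 2.53, 1.52 and 0.130 CPM in iron negative libraries (4.16 ± 0.94, adjusted p = 0.0260, edgeR). Its iron negative counts were few, at 14, 52, 34 and 3. Mgp, matrix Gla protein, an inhibitor of calcification, had 2.19, 42.5, 20.01 and 5.90 CPM in iron positive and 0.795, 2.24, 1.25 and 0.870 CPM in iron negative libraries (3.78 ± 0.89, adjusted p = 0.0290, edgeR). Iron negative 3R and iron positive 3L overlapped in Mgp and not in Tnc. Postn, periostin, a fibroblast product of remodelling tissue (3.06 ± 0.75), and the large proteoglycan Vcan (2.18 ± 0.49) passed too. Thbs2, a thrombospondin that inhibits vessel growth (2.86 ± 0.82), passed only with the block.

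Fn1 and Thbs1, the most abundant adhesive genes of the iron negative libraries, differed less. Fn1, fibronectin, had 587, 848, 583 and 508 CPM in iron positive and 402, 372, 277 and 352 CPM in iron negative libraries. Every iron positive library was above every iron negative one, and the log2 fold change was 0.85 ± 0.17 (adjusted p = 0.0209, edgeR). Thbs1, thrombospondin 1, an activator of latent TGF-beta, had 2868, 563, 1730.4 and 1030.3 CPM in iron positive and 1088, 365, 304 and 626 CPM in iron negative libraries. Iron positive was higher in each tag but the groups overlapped, at 1.38 ± 0.55 (adjusted p = 0.129, edgeR, and 0.0269 with the tag as a block). Its highest library in both fractions was 3L, where most other genes of the list were lowest.

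**Figure D2:**
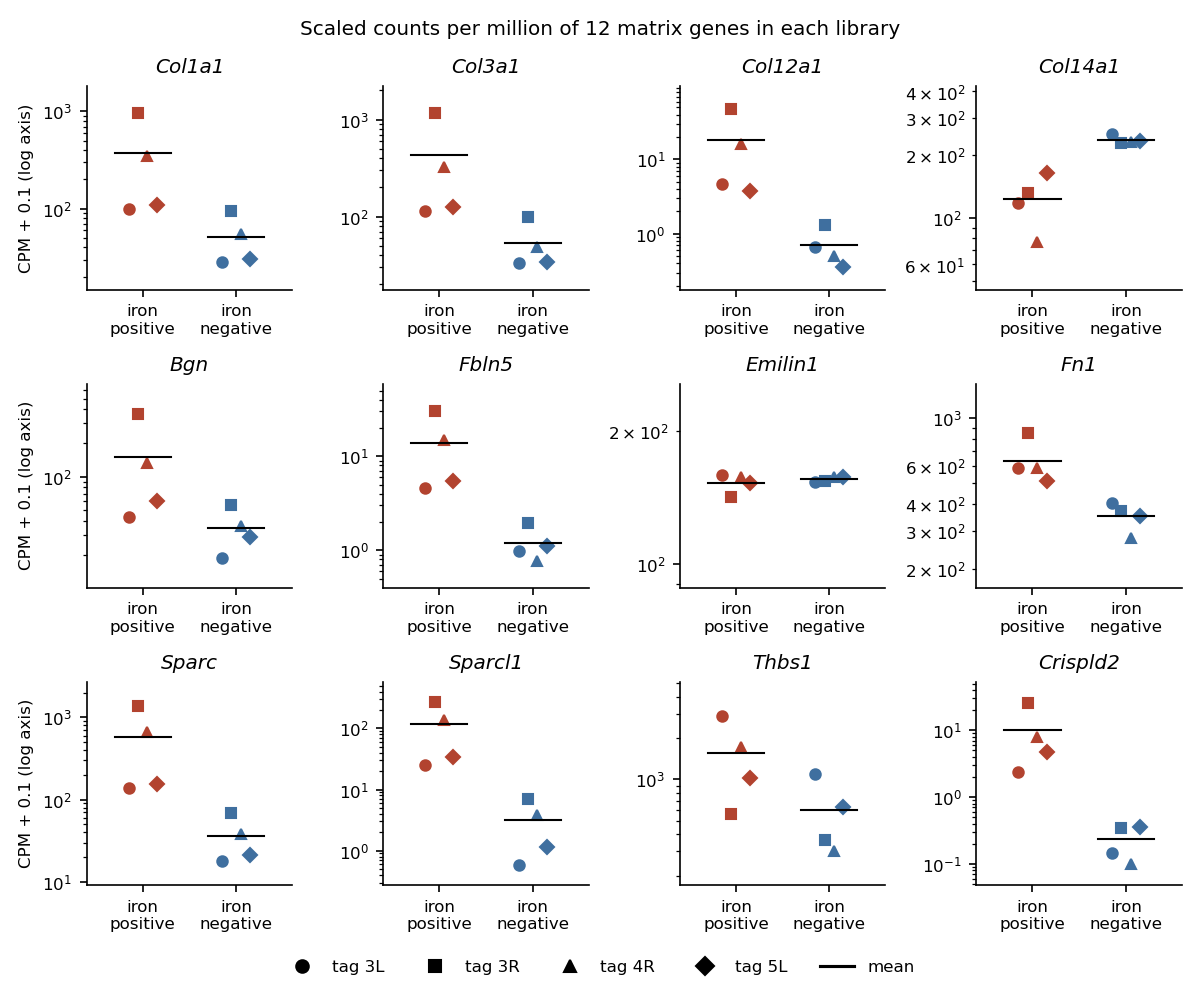
Scaled CPM plus 0.1 on a log axis in each library for 12 of the genes, iron positive at left and iron negative at right, with 1 symbol per tag and a bar at the mean of 4. Tag 3R is the highest iron positive point in most panels, Emilin1 is level, Col14a1 is lower in iron positive libraries, and Thbs1 is highest in 3L.

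Collagen processing and crosslinking genes followed the collagens: 3 of 5 rose, and all 5 with the block. Serpinh1, the collagen chaperone, had 52.0, 391, 206 and 63.4 CPM in iron positive and 11.4, 34.6, 21.5 and 14.8 CPM in iron negative libraries. The groups did not overlap, at 3.12 ± 0.69 (adjusted p = 0.0256, edgeR). Loxl2, a lysyl oxidase, had 5.98, 51.0, 23.8 and 8.36 CPM in iron positive and 2.30, 6.00, 4.16 and 2.70 CPM in iron negative libraries (2.56 ± 0.69, adjusted p = 0.0426, edgeR). Pcolce, which enhances removal of the procollagen C-propeptide, had 8.82, 55.3, 24.1 and 9.91 CPM in iron positive and 2.74, 9.31, 5.42 and 4.91 CPM in iron negative libraries (2.13 ± 0.63, adjusted p = 0.0584, edgeR, and 0.00367 with the block). Of the other lysyl oxidases, Lox passed (2.67 ± 0.74), and Loxl1, which acts on elastin (1.96 ± 0.73), passed only with the block. Loxl2 and Pcolce overlapped between the groups and Serpinh1 and Lox did not. Pcolce overlaps Fbxo24 on the same strand, which reached 1.57 CPM, and reads of shared sequence may be split between such genes.

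The 3 genes listed as fibroblast surface or secreted genes went separate ways. Crispld2 (chr8:119992438-120052793), a secreted protein of the CRISP family, had 2.24, 25.4, 7.94 and 4.67 CPM in iron positive libraries and 0.0442, 0.244, 0 and 0.261 CPM in iron negative ones, where it had 1, 5, 0 and 6 counts. It had the largest log2 fold change of the 38, 6.15 ± 1.02 (adjusted p = 0.0173, edgeR), on few iron negative counts. Its span overlaps that of a predicted gene on the same strand, Gm20388, of up to 2.49 CPM, and shared transcript sequence was not examined. Thy1, a surface glycoprotein of fibroblasts that T cells and some endothelium also carry, had 7.97, 62.7, 32.4 and 11.7 CPM in iron positive and 3.89, 9.75, 9.22 and 6.00 CPM in iron negative libraries (1.99 ± 0.64, adjusted p = 0.0720, edgeR, and 0.00977 with the block). Fap, the membrane protease used as a marker of tumor fibroblasts, had 6.23, 9.73, 6.58 and 9.29 CPM in iron positive and 9.06, 8.29, 13.4 and 11.5 CPM in iron negative libraries. The groups overlapped, at -0.41 ± 0.21 (adjusted p = 0.219, edgeR, and 0.187 with the block).

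The promoters of 4 genes that rose are shown to set a pair of fibrillar chains beside the collagen chaperone and the steepest gene. Each line is the 250 bases before the first transcribed base of RefSeq (GRCm38.p6), 5′ to 3′ on the strand of the gene, with the motifs searched in capitals. The 4 were chosen because the RefSeq start equals the outer end of the gene in the annotation used here. They lie at chr1:45311288-45311537 on the plus strand (Col3a1), chr2:27886175-27886424 on the plus strand (Col5a1), chr7:99353240-99353489 on the minus strand (Serpinh1) and chr8:119992188-119992437 on the plus strand (Crispld2).
Col3a1: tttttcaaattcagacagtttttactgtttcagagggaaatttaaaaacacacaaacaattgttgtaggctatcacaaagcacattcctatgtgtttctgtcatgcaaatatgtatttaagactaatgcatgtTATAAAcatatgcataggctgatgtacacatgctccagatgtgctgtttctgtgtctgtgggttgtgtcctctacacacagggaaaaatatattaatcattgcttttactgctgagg
Col5a1: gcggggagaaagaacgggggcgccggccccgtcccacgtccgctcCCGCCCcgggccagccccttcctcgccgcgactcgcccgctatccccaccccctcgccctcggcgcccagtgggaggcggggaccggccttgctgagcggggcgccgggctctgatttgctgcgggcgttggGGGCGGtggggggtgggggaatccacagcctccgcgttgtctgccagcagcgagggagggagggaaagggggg
Serpinh1: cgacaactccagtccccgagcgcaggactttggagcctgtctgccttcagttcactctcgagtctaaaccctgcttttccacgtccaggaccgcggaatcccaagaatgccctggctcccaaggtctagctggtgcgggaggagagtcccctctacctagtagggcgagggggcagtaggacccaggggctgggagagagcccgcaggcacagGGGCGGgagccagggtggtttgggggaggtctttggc
Crispld2: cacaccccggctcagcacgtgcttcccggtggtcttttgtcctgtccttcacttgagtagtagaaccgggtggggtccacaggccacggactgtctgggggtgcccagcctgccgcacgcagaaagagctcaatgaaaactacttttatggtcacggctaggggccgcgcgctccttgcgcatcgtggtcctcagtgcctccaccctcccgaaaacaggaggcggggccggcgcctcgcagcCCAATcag

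Although all 4 genes rose, the motifs differed. Col3a1 had a TATAAA at -117, counted with -1 as the base before the first transcribed one, and no GC box. Col5a1 had GGGCGG, the GC box core, at -73 and on the other strand at -205, and Serpinh1 had it at -37. Crispld2 had a CCAAT at -8. Of the 42 genes, 25 had an entry, with 31 promoters. GGGCGG on either strand was in 58.1% of these and in 32.7% of all 32851 promoters of the same length. CCAAT was in 29.0% against 33.8%, TATAAA in 16.1% against 12.4%, and TGANTCA, the AP-1 site, in 3.23% against 6.75%. Each motif was searched on both strands, and matches describe the sequence only.

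The size of the difference varied with the tag, while all of the 42 genes but Col11a1, Emilin1 and Fap kept 1 direction across the tags. The median log2 ratio of iron positive over iron negative CPM (plus 0.1) over the 42 genes was 1.57, 3.34, 2.48 and 1.63 for the tags 3L, 3R, 4R and 5L, and the median of all tested genes lay between -0.02 and 0.01 in each. Higher in the iron positive library were 39, 40, 39 and 39 of the 42 genes in the tags in that order. A ratio over 4-fold was reached by 10, 36, 29 and 12 genes, where 3.94%, 7.16%, 5.87% and 2.97% of all tested genes did. Between libraries of 1 fraction the genes also kept a common order. In the iron positive fraction 39 of the 42 were highest in 3R, as were 36.0% of all tested genes, and 33 were lowest in 3L, as were 28.7%. In the iron negative fraction 32 had their top value in 3R, as did 23.6% of all tested genes, and 29 their lowest in 3L, as did 32.8%. The order 3R, then 4R, then both others held for 37 genes in iron positive libraries and for 29 in iron negative libraries, and for 29 in both. How many of all tested genes had this order was not counted. Summed TPM of endothelial, pericyte and red cell markers likewise peaked in 3R and was at its lowest in 3L within each fraction, and their part in this order was not tested.

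**Figure D3:**
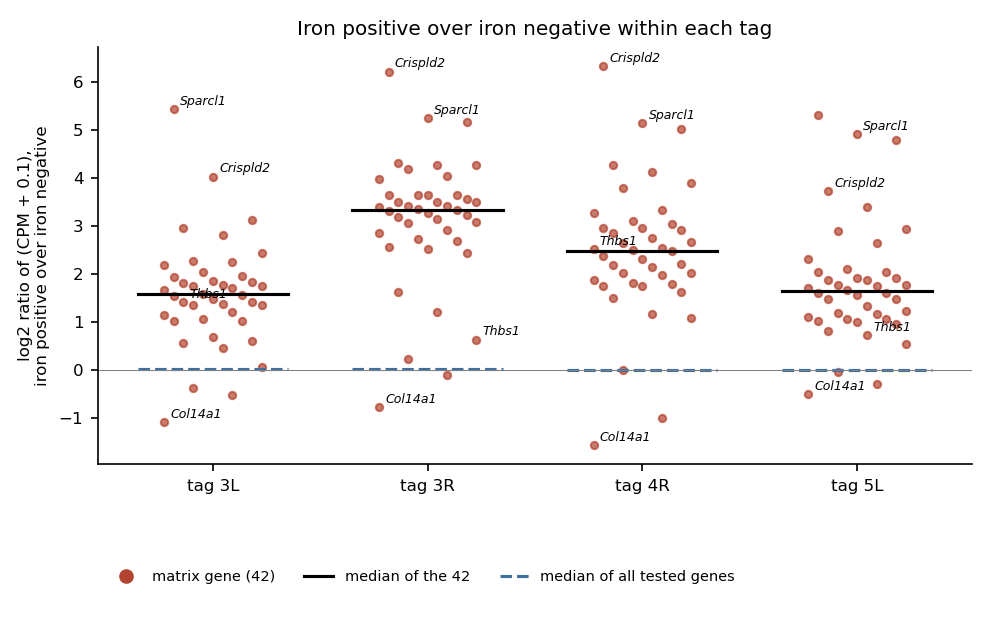
Log2 ratio of CPM plus 0.1 in the iron positive over the iron negative library of each tag, with 1 point per gene (42), a black bar at their median and a dashed line at the median of all tested genes. The medians are 1.57, 3.34, 2.48 and 1.63 for 3L, 3R, 4R and 5L, and Col14a1 is below 0 in each tag.

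On the length-corrected TPM scale, which allows levels of different genes to be compared, the 42 genes summed to 1185, 3740, 2051 and 889.7 TPM in iron positive libraries of the tags 3L, 3R, 4R and 5L, and to 513, 555, 431 and 446 TPM in iron negative ones. Sparc had the highest mean level in iron positive libraries (387 ± 389 TPM, SD, n = 4), next to Thbs1 (378 ± 228 TPM). The place of Sparc rests on 3R, where it had 912 TPM against 147 TPM for Thbs1. Thbs1 was the higher of the pair in 3L (664 against 84.8 TPM) and 5L (255 against 101 TPM), and they were level in 4R (448 against 450 TPM). Fn1 (125 ± 29.7 TPM), Col3a1 (123 ± 144 TPM) and Serpinh1 (121 ± 109 TPM) followed with similar means, although Fn1 was above Col3a1 in each iron positive library but 3R. In iron negative libraries Thbs1 led (136 ± 76.1 TPM), followed by Fn1 (67.3 ± 9.10 TPM), Col14a1 (57.9 ± 1.51 TPM), Emilin1 (56.6 ± 4.32 TPM) and Sparc (23.2 ± 14.98 TPM). Sparcl1 stood at place 10 of the 42 in iron positive and at place 25 in iron negative libraries.

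The make-up of the summed TPM also varied. Fn1, Thbs1, Emilin1, Col14a1 and Fap, 5 genes picked after their values were seen, held 42.03 ± 26.3% of it in iron positive and 66.95 ± 15.02% in iron negative libraries (SD, n = 4 each), with overlapping ranges of 11.2% to 72.6% and 49.95% to 83.7%. The other 37 genes summed to 325, 3323, 1385 and 428 TPM in iron positive and to 83.5, 278, 173 and 114 TPM in iron negative libraries. The 7 fibrillar chains made up 6.92% to 22.9% of the sum in iron positive and 4.62% to 14.6% in iron negative libraries. Sparc alone held 7.15% to 24.4% in iron positive and 2.08% to 7.86% in iron negative libraries.

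**Figure D4:**
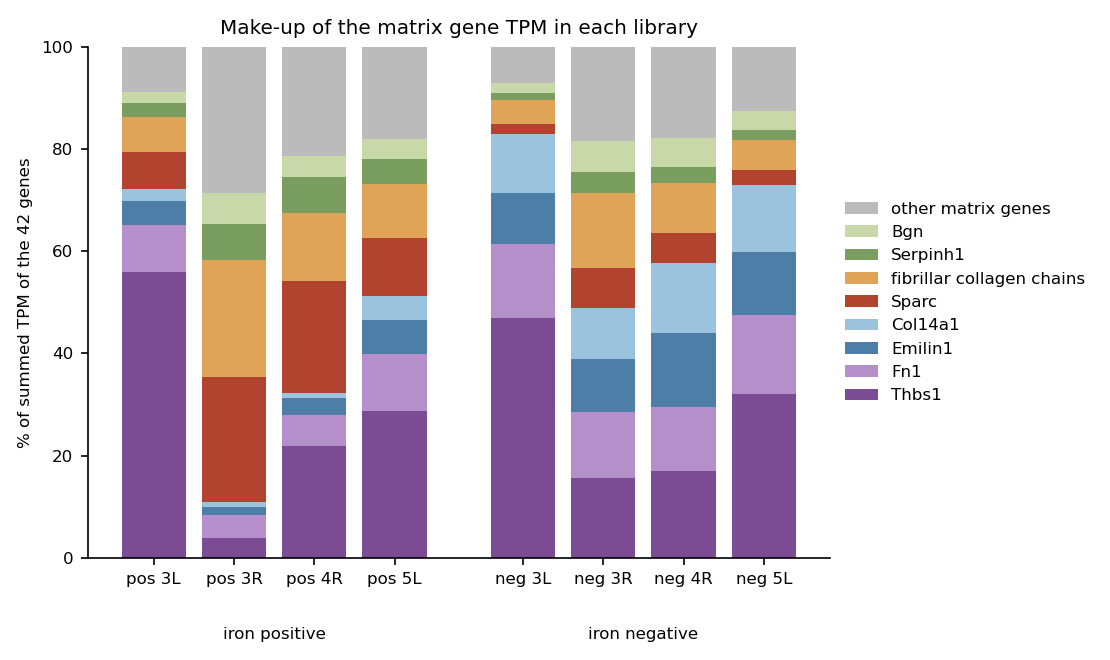
Percent of the summed TPM of the 42 genes in each library, iron positive at left and iron negative at right, stacked by gene or gene group. Thbs1 holds 56.0% in iron positive 3L and 3.92% in iron positive 3R, while Emilin1 and Col14a1 hold larger parts in all 4 iron negative libraries.

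Ratios between genes of 1 library do not depend on how libraries are scaled. Collagen I is built from a pair of alpha 1 chains and 1 alpha 2 chain, and the ratio of Col1a1 to Col1a2 TPM was 1.0997 to 1.35 in iron positive and 0.937 to 1.11 in iron negative libraries. Col3a1 to Col1a1 was 1.12 to 1.5001 in iron positive and 1.03 to 1.57 in iron negative libraries, with no separation. Sparc to Col1a1 was 3.88, 4.09, 5.51 and 4.06 in iron positive and 1.86, 2.11, 2.05 and 2.09 in iron negative libraries, so that the groups did not overlap. Sparcl1 to Col1a1 was 0.544 to 0.895 in iron positive and 0.0499 to 0.168 in iron negative libraries, also apart. Bgn to Col1a1 was lower in the iron positive group, at 1.01 to 1.45 in iron positive and 1.63 to 2.54 in iron negative libraries.

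The same question was put to all genes by scaling the libraries to the counts of Col1a1, Col1a2 and Col3a1, a scaling chosen after the data had been seen. Relative to these collagens 3 genes were higher in iron positive libraries and 3 lower, where 1.40% of all tested genes were higher and 82.4% lower. Crispld2 (3.29 ± 0.88), Sparcl1 (2.65 ± 0.84) and Col12a1 (1.88 ± 0.78) were the higher ones, and Col14a1 (-2.93 ± 0.96), Fap (-2.55 ± 0.83) and Emilin1 (-2.06 ± 0.92) the lower ones, with adjusted p-values of 0.0314 to 0.0347 (edgeR). With the tag as a block 6 were higher and 5 lower, beside 2.02% and 92.7% of all tested genes. The block added Tnc (1.64 ± 0.45), Sparc (1.16 ± 0.49) and Fbln5 (0.90 ± 0.44) to the higher genes and Fn1 (-1.57 ± 0.51) and Thbs1 (-1.06 ± 0.51) to the lower. Without iron negative 3L, 4R or 5L or iron positive 4R, none of the genes was called in the unblocked fit, and the share of all tested genes called there is not given here. In TPM the ratio of Col12a1 to Col1a1 overlapped, at 0.0238 to 0.0319 in iron positive and 0.00374 to 0.0362 in iron negative libraries.

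**Figure D5:**
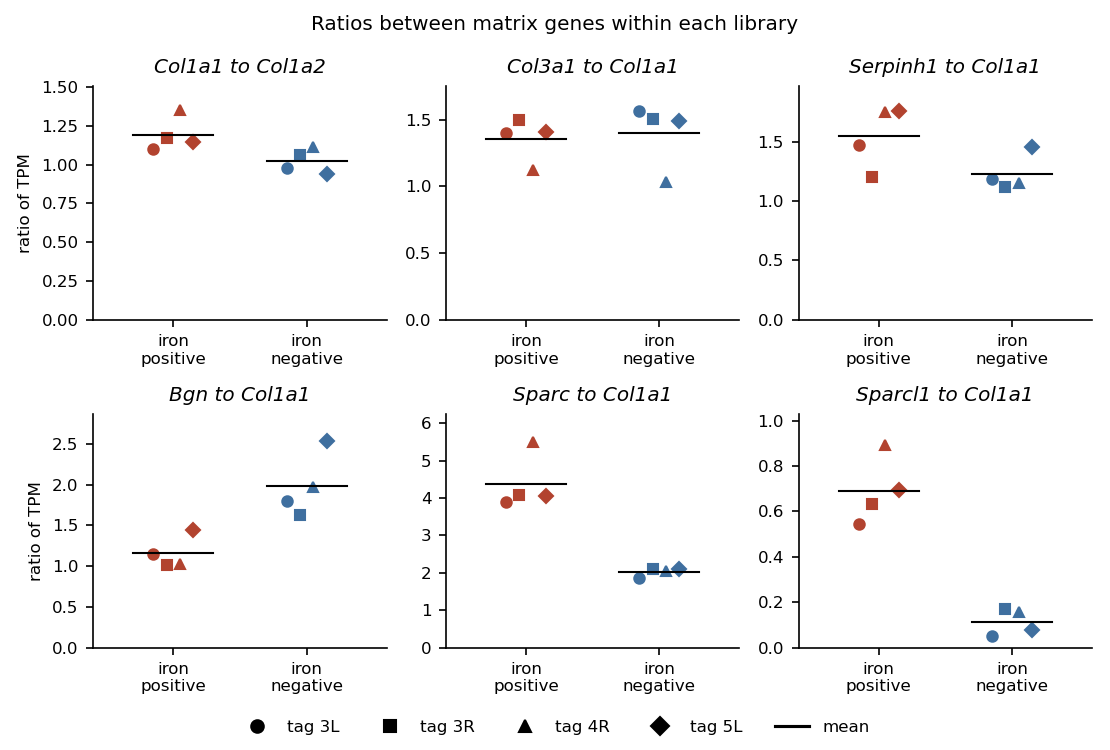
Ratios of TPM between pairs of genes within each library, iron positive at left and iron negative at right, with 1 symbol per tag and a bar at the mean of 4. Sparc and Sparcl1 relative to Col1a1 are higher in all 4 iron positive libraries, Bgn relative to Col1a1 is lower, and Col3a1 relative to Col1a1 is mixed.

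Other genes of the same biology, from lists beside the 42, moved in part. In the collagen biosynthesis machinery (prolyl and lysyl hydroxylases, propeptidases, export factors) 10 of 26 tested genes rose and none fell, with 15 higher and 1 lower with the tag as a block, and the median log2 fold change was 0.82. Over all tested genes 8.49% rose and 5.21% fell, and 12.8% and 9.39% did with the block. Bmp1, the procollagen C-proteinase, had 11.2, 75.2, 42.8 and 14.8 CPM in iron positive and 3.71, 8.29, 6.04 and 5.61 CPM in iron negative libraries (2.61 ± 0.60, adjusted p = 0.0281, edgeR). Crtap, of the prolyl 3-hydroxylase complex, had 39.9, 51.3, 49.4 and 34.3 CPM in iron positive and 24.7, 27.6, 28.3 and 28.7 CPM in iron negative libraries (0.68 ± 0.13, adjusted p = 0.0184, edgeR). Sec24d, a COPII coat subunit of procollagen export, had 74.8, 64.2, 67.8 and 46.6 CPM in iron positive and 41.1, 44.2, 41.7 and 40.6 CPM in iron negative libraries (0.60 ± 0.13, adjusted p = 0.0237, edgeR). In all 3 genes the groups were apart. P4hb and Ppib, machinery genes with general duties in the endoplasmic reticulum, were picked after their values were seen. Their log2 fold changes were near 0, with 0.05 ± 0.09 for P4hb and 0.01 ± 0.07 for Ppib, and the sign of each turned with libraries left out.

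Of 39 further interstitial matrix genes, 27 were tested, and 10 rose and none fell (21 with the block), at a median of 2.25. Beside these, 8.49% of all tested genes rose (12.8% with the block). Igfbp7, a secreted growth factor binding protein that vessels also make, had 57.97, 629, 477 and 119 CPM in iron positive and 1.33, 13.8, 9.49 and 0.217 CPM in iron negative libraries (5.70 ± 1.17, adjusted p = 0.0209, edgeR). The matricellular genes Ccn1 and Ccn2 had 76.6 to 543 and 16.3 to 119.6 CPM in iron positive libraries and 10.9 to 31.0 and 1.64 to 5.36 CPM in iron negative ones. Their log2 fold changes were 3.92 ± 0.67 and 4.08 ± 0.67 (adjusted p = 0.0173 for each, edgeR). Groups did not overlap in any of the 3.

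Of 18 fibroblast lineage genes, 16 were tested and 3 rose (9 with the block), at a median of 1.18. These few genes stand beside 8.49% of all tested genes higher, and 12.8% with the block. Pdgfrb, a receptor of fibroblasts and pericytes, had 7.18, 86.8, 38.8 and 14.8 CPM in iron positive and 2.21, 5.70, 4.66 and 1.52 CPM in iron negative libraries (3.39 ± 0.80, adjusted p = 0.0290, edgeR). Pi16, known from adventitial fibroblasts, had 3.84, 4.84, 5.93 and 3.26 CPM in iron positive and 1.77, 2.14, 1.93 and 1.78 CPM in iron negative libraries (1.23 ± 0.22, adjusted p = 0.0177, edgeR). S100a4, a calcium-binding protein that macrophages express as well, had 57.5 to 76.1 CPM in iron positive and 37.9 to 47.5 CPM in iron negative libraries (0.57 ± 0.11, adjusted p = 0.0183, edgeR). All 3 were apart between the groups. Pdgfra, the receptor most used to mark fibroblasts, had 2.37 ± 0.76 (adjusted p = 0.0723, edgeR, and 0.00398 with the block). Fibroblast lineage genes were thus present in both fractions and, like the 42 genes, were not all higher in the iron positive one.

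Transcript use was compared as the share of the main transcript in the counts of its gene. The 15 genes compared had more than 1 listed transcript and at least 50 counts in each library. Their main transcript held 20% to 95% of the counts summed over libraries. None passed, with the tag as a block or without (limma, adjusted p under 0.05), where 0.0139% of 7220 genes did, and 2 of the 15 had an unadjusted p under 0.05, as did 8.92% of the 7220. The main Pcolce transcript held 83.7 ± 5.45% in iron positive and 62.5 ± 12.8% in iron negative libraries (SD, n = 4 each), and that of Thy1 held 82.0 ± 11.2% in iron positive and 60.8 ± 13.6% in iron negative libraries, with adjusted p-values of 0.472 and 0.523 (limma). Sparc had 64.3 ± 2.04% in iron positive and 62.9 ± 8.09% in iron negative libraries.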

How the data were processed

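RNA was measured in 4 iron positive and 4 iron negative libraries. Per the submitters' processing notes, transcripts were quantified with kallisto 0.46.2 and the build mm10 is named, and the transcript release is not given there. Per the file headers, each deposited table holds an estimated count per transcript, which is not normalized. Beside it the deposited tables hold TPM, set by kallisto from effective length and library size, and the lengths themselves as other values.

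The 119414 transcripts were joined to GENCODE mouse release 21 (GRCm38), where 116728 matched and 2686 did not, the unmatched ones holding 0.888% to 0.961% of counts. Expected counts were summed per gene, rounded to whole numbers, filtered (filterByExpr, minimum count 10) to 13343 genes and scaled by TMM. No strand was used, so where genes overlap on opposite strands their reads cannot be separated. The test was edgeR 4.0.16 (R 4.3.3) quasi-likelihood on the fraction, with Benjamini-Hochberg adjustment over all 13343 genes and a threshold of 0.05. The SE is the absolute log2 fold change divided by the root of F, which is approximate. Alternatives used DESeq2 1.42.0, limma 3.58.1, log2(TPM + 0.1 or + 1), other scalings and filters, and libraries left out. Transcript use was tested with limma on log ratios (0.5 added) for genes with more than 1 listed transcript and at least 50 counts in each library. The main transcript had to hold 20% to 95% of the counts summed over libraries. Scripts were tested on simulated data.

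The 42 genes, the further lists and the rules were chosen with earlier results of these data known. All 42 are named; values per library are given, in each role group, for the 2 with the highest mean TPM and the 2 with the smallest adjusted p that passed, and for up to 3 genes of each further list; Tnc, Mgp, Eln, Fmod, Pdgfra, P4hb and Ppib were added after their values were seen. Libraries of equal tag deviated together from their fraction's mean across genes, with correlations of 0.53 (3L), 0.52 (3R), 0.27 (4R) and 0.30 (5L), all above the limit of 0.1, so a blocked fit is printed where it changes a call. Some unlike tags passed the limit too. Iron positive 4R with iron negative 3R gave 0.26, 5L with 3L 0.23, 3R with 4R 0.21 and 3L with 5L 0.13. The other unlike pairs were negative, so the limit does not single out equal tags. No libraries were alike within counting noise, with a chi-square per gene of 44.5 to 113 between iron positive and 9.64 to 27.9 between iron negative libraries. Depth of 19.04 to 24.31 M counts per library sets a floor of 3 counts at 0.130 to 0.151 CPM, which covers counting error only.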

Additional observations from a re-analysis of the deposited data

Results flagged for a closer look

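Lox, a lysyl oxidase that crosslinks collagen and elastin, had 9.52, 68.1, 18.4 and 8.72 CPM in the iron positive libraries of the tags 3L, 3R, 4R and 5L. The gap between 3R and the next library was 0.836 of the whole range in this group of 4, above Dixon's 95% critical value. It was the 1 group of 102 examined that passed this limit, and chance alone passes about 1 in 20 groups. Iron positive 3R was the highest library for 39 of the 42 genes, so Lox shares its high library with nearly all of the list.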

How the results depend on the processing

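The direction of most genes held while the number called did not. With the tag as a replicate block, which the labels' shared tags supply, 35 of the matrix genes were higher (23 without it), 21 of the further interstitial matrix genes (10 without), 9 fibroblast lineage genes (3 without), and 6 higher and 5 lower relative to collagen I and III (3 and 3 without). DESeq2 gave 33 matrix genes higher, 18 further matrix genes and 9 lineage genes. limma voom called 2 matrix genes higher and 1 lower, and 1 machinery gene and 1 further matrix gene higher. Log2(TPM + 0.1) called 9 matrix genes higher and 1 lower and 2 machinery genes higher, and log2(TPM + 1) called 4 matrix genes higher and 1 lower, 2 machinery genes higher and 5 further matrix genes higher. Without both libraries of tag 4R, 0 genes were called in any of the 4 lists by edgeR, where 33 matrix genes were higher at an unadjusted p under 0.05. Without both libraries of tag 3R, 16 matrix, 0 machinery and 6 further matrix genes were called, and on tags 3L and 5L alone 20, 1 and 4. What share of all tested genes passed in these smaller fits is not given here, so the counts do not single out the lists. Col14a1, the 1 lower gene, was lost (0 lower) under macrophage scaling, without tag 3R, without tag 4R and on 3L and 5L alone. It was also lost in the unblocked edgeR fit without iron negative 3L, 3R, 4R or 5L.

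With each library left out in turn, the number higher was 0 to 36 for the matrix genes (10 to 37 in DESeq2, where iron positive 4R left out gave 10 with 21 adjusted p-values missing), 0 to 13 for the machinery, 0 to 16 for further matrix genes, 0 to 7 for lineage genes, and 0 to 1 lower. Relative to collagen I and III it was 0 to 4 higher and 0 to 3 lower. For these fits too the share of all tested genes called is not given here. The log2 fold change of Emilin1 turned positive with library totals (0.026), log2(TPM + 0.1) and log2(TPM + 1) (0.10 each), macrophage scaling (0.15) and without both libraries of tag 3R (0.010), and ranged over -0.0529 to 0.0066 with 1 library left out, where it was positive without iron positive 3R. The log2 fold change of Ppib turned negative with no filter (-0.0065), on tags 3L and 5L alone (-0.057), without tag 3R (-0.0039) and without tag 4R (-0.0078), and ranged over -0.022 to 0.055 with 1 library left out. For P4hb it ranged over -0.019 to 0.092 there. The log2 fold change of Mmp2 turned negative on tags 3L and 5L alone (-0.32) and without tag 3R (-0.24), and ranged over -0.38 to 0.47 with 1 library left out, where it was negative without iron positive 3R. Under macrophage scaling the log2 fold change of Mmp14 turned positive (0.0064). The cause of these changes was not tested. None of the other genes whose single fold change was recomputed under each setting changed sign, and no transcript use of the 15 genes was called under any alternative. A block changed no other call than those named in the text.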

Other observations

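A pair of matrix proteases of the fibroblast lineage list were called by edgeR neither with the tag as a block nor without it, and a surface glycoprotein of that list was called with it but not without it. Mmp2, a gelatinase that digests denatured collagen, had 48.7, 189, 66.0 and 56.7 CPM in iron positive and 67.0, 94.4, 71.6 and 64.3 CPM in iron negative libraries of the tags 3L, 3R, 4R and 5L (log2 fold change 0.28 ± 0.41, adjusted p = 0.694, edgeR, and -0.38 without iron positive 3R). Mmp14, its membrane-bound activator, had 459.8, 596, 559 and 473 CPM in iron positive and 631, 620.2, 583 and 556 CPM in iron negative libraries (-0.20 ± 0.10, adjusted p = 0.218, edgeR). Both overlapped between the groups. Pdpn, podoplanin, which fibroblasts and some macrophages carry, had 93.7, 23.6, 72.4 and 41.5 CPM in iron positive and 39.4, 16.7, 18.7 and 30.4 CPM in iron negative libraries (1.13 ± 0.44, adjusted p = 0.117, edgeR, and 0.0264 with the tag as a block). It was higher in the iron positive library of each tag and, like Thbs1, was highest in 3L in both fractions and lowest in 3R in the iron positive one. These 3 genes were picked after their values were seen.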
